A study of Mus musculus with 12 samples.

Results

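The cells described are the 113 mouse testis germ cells that the authors annotated as pre-meiotic in 6 single-cell RNA libraries collected 260 h after retinoic acid, out of 929 annotated cells in the whole series. They were chosen by collection time and by that annotation alone, and their unique molecular identifiers (UMIs, tags that each mark 1 cDNA molecule) were summed within each library. The 3 Zfp541-KO libraries held 23, 20 and 18 such cells, and the 3 WT libraries held 24, 11 and 17. The comparison asks what loss of Zfp541 did to cells that stand before the stage at which its protein is known to act.

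All animals were C57BL/6 pups in which germ cells had been synchronised. They were fed WIN 18,446, an inhibitor of retinoic acid synthesis, for 7 days from 2 days after birth and then injected with retinoic acid on day 8, and this held for both genotypes. The knockout group is named only Zfp541-KO, and no source used here gives its allele or deleted part. Single cells were picked by mouth pipette from dissociated testis, so picking could shape which cells entered. The labels leave unsaid whether a group's libraries are from different animals, so each p-value reflects only how far these libraries spread, part of which may be technical.

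Retinoic acid starts spermatogonial differentiation and, through Stra8, entry into meiosis. Mid meiotic prophase, the pachytene stage, then brings a large transcriptional programme of sperm genes, while the X and Y chromosomes are silenced. ZFP541 is a zinc finger protein of mouse spermatocytes that binds KCTD19 and the histone deacetylases HDAC1 and HDAC2 and is required for spermatocytes to pass through pachytene.

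The annotation was checked against markers in the early pachytene cells of the same libraries. Dmrt1, a regulator of spermatogonia, lay at 357, 392 and 381 CPM (gene UMIs relative to the TMM-scaled library size, in counts per 1e6) in the KO pre-meiotic sums and at 348, 257 and 310 CPM in the WT ones, against 26.0 to 45.5 CPM in all 6 early pachytene sums. TMM was run separately in each class, so CPM compared between the classes are not on one common scale. Of 15 markers of differentiating spermatogonia, 8 were higher in every pre-meiotic sum than in every early pachytene sum, as were 9 of 18 markers of undifferentiated spermatogonia. In these lists 0 and 1 members were lower in every pre-meiotic sum. Of 22 synaptonemal complex and crossover genes, 11 were lower in every pre-meiotic sum and 1 was higher. Of 34 meiotic entry genes, 12 were lower and 3 were higher. The share of all genes that separate the classes in this way was not taken, so these counts have no background. X-linked genes took 1.79% to 2.5% of the UMIs of the pre-meiotic sums and 0.359% to 0.582% of the early pachytene ones. Stra8, which marks entry into meiosis, reached 66.2, 314 and 53.4 CPM in KO and 67.1, 365 and 17.1 CPM in WT. Kit, the receptor of differentiating spermatogonia, ran at 77.9, 245 and 99.8 CPM in KO and at 145, 53.2 and 15 CPM in WT. Stra8 and Kit varied more between libraries of one genotype than between genotypes. The late sperm protamine gene Prm1 had 0 UMIs in all 6 pre-meiotic sums. Tnp1, which encodes a transition protein of late spermatids, had 13, 50 and 13 UMIs in KO and 20, 2 and 4 UMIs in WT pre-meiotic sums, and 1, 1 and 0 UMIs in KO and 2, 3 and 3 UMIs in WT early pachytene sums. As a level, Tnp1 was 4.48, 23.5 and 10.1 CPM in KO and 12.9, 2.80 and 1.66 CPM in WT pre-meiotic cells, with overlapping groups, above all 6 early pachytene values, the highest of which was 1.20 CPM. The source of this RNA was not tested.

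The libraries differed within each genotype. Pre-meiotic cells made up 23 of 82, 20 of 70 and 18 of 50 kept cells in KO and 24 of 52, 11 of 68 and 17 of 89 in WT. The pre-meiotic sums held 2861429, 2248114 and 1273457 gene UMIs in KO and 1710847, 682733 and 2214687 in WT, and single cells had 46513 to 254120. WT library 1 had the highest level of blood marker RNA. The summed level of 20 blood and immune markers was 57.9, 369 and 698 CPM in KO and 955, 167 and 23.3 CPM in WT, and 2 of the 20 were found in all 6 sums. The macrophage marker C1qa had 0.690, 0 and 0 CPM in KO and 15.5, 19.6 and 0 CPM in WT. Sertoli markers summed to 518 to 807 CPM in KO and 419 to 816 CPM in WT. Cells with more than 0.2% of their UMIs in the somatic and blood lists numbered 1, 2 and 2 in KO and 17, 1 and 0 in WT. The part of this RNA in the results below was not tested beyond the values given without those cells. All 113 cells lay in 1 k-means cluster of the authors. Of 71 distinct cell barcodes, 30 occurred in at least 2 libraries, which draw on the same set of 96.

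Zfp541 itself did not separate the genotypes in pre-meiotic cells. It lay at 55.5, 24.5 and 23.2 CPM in KO and at 10.3, 43.4 and 65.8 CPM in WT, a log2 fold change (KO over WT) of -0.20 ± 0.57 (SE, n = 3 libraries each; edgeR quasi-likelihood test, adjusted p = 0.961). The groups overlapped fully. Because the libraries read 3′ ends and the deleted part is not given, these counts do not check the knockout label. Early pachytene cells, where the gene was higher, had 165, 142 and 139 CPM in KO and 73.6, 100 and 141 CPM in WT. Kctd19, which encodes the partner of ZFP541, had 20.0, 14.1 and 6.96 CPM in KO and 22.0, 39.2 and 40.0 CPM in WT, with the 3 KO values below all WT values and an adjusted p of 0.394 in edgeR (log2 fold change -1.26 ± 0.49). Hdac2, a catalytic subunit of the complex, had 226, 257 and 176 CPM in KO and 128, 157 and 191 CPM in WT, overlapping groups at a log2 fold change of 0.47 ± 0.29. Hdac1 (-0.31), Dnttip1 (-0.17), Elmsan1 (-0.20) and Trerf1 (0.82) did not pass the test either.

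Across the 12223 genes tested, 4 were called at an adjusted p under 0.05 (0.0327%), 3 higher (0.0245%) and 1 lower (0.00818%) in KO, while 1185 had an unadjusted p under 0.05, 639 higher and 546 lower. With library sizes set by the spike-in RNAs instead, 14 genes were called, 5 higher and 9 lower. The higher genes were Akap7, Pcsk1n and the long noncoding RNA Gm26822, and the lower one was n-R5s196, a 5S ribosomal RNA copy. The count changed with the libraries used. It was 6, 1 and 3 without KO libraries 1, 2 and 3. It was 222 (91 higher, 131 lower) without WT library 1, 123 (99 higher, 0.774%; 24 lower) without WT library 3 and 0 without WT library 2, where 671 genes had an unadjusted p under 0.05. All 4 genes were among the 222 and among the 123. DESeq2 on the same counts called 178 (0.81% higher, 0.646% lower), limma-voom called 0 with 1199 at an unadjusted p under 0.05, and 0 were called after the cells of high somatic share were left out, with 1119 at an unadjusted p under 0.05.

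The 2 called protein-coding genes are shown with their promoter windows (RefSeq, build GRCm38.p6, 250 bases before to 50 after the start), each searched on both strands for the letters TAACNG bound by MYB proteins, the E-box CACGTG and the cAMP response element TGACGTCA, with matches in capitals. Akap7 has 2 listed starts on the minus strand, at chr10:25297030-25297329 and chr10:25200100-25200399, and Pcsk1n has 1 on the plus strand at chrX:7919572-7919871.
Akap7 start 1: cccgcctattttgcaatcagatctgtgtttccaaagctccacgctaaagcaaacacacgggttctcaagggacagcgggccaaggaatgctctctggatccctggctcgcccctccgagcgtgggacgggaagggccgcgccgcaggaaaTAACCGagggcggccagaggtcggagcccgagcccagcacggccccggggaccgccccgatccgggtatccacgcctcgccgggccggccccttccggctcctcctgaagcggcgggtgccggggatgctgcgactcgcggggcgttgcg
Akap7 start 2: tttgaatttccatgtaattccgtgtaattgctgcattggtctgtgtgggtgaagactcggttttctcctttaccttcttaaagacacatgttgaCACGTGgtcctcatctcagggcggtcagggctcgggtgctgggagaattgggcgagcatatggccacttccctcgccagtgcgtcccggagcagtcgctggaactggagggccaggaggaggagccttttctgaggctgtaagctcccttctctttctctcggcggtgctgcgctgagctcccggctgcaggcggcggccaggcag
Pcsk1n: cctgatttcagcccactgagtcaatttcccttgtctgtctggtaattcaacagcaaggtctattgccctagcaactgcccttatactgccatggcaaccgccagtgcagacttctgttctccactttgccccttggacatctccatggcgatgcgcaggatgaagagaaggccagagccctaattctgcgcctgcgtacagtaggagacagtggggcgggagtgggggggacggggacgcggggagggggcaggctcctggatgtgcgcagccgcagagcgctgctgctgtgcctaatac
Start 1 of Akap7 holds 1 MYB match at bases 151 to 156, and start 2 holds 1 E-box at bases 95 to 100. The Pcsk1n window holds none of the 3 letter strings. The MYB string occurs in 23.3% of 32851 such mouse windows, the E-box in 7.15% and the cAMP response element in 1.79%. A match is a description of letters only, and 3′ counts cannot tell which start was used.

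Akap7 encodes an A-kinase anchoring protein, which tethers protein kinase A to membranes (chromosome 10, 25169090 to 25307870, minus strand, mm10). It was 52.4, 72.0 and 54.9 CPM in KO pre-meiotic cells and 6.46, 5.60 and 8.32 CPM in WT ones. All KO libraries lay above all WT ones, and the log2 fold change was 3.08 ± 0.43 (SE, n = 3 each; edgeR adjusted p = 0.0199). Akap7 UMIs were found in many cells: 15 of 23, 13 of 20 and 13 of 18 KO cells had an Akap7 UMI, against 7 of 24, 4 of 11 and 13 of 17 WT cells. In the early pachytene cells of the same libraries Akap7 was 11.5, 15 and 19.4 CPM in KO and 15, 22.5 and 12 CPM in WT, overlapping groups at a log2 fold change of -0.12. The pre-meiotic minus early pachytene difference of the knockout effect was 3.05 ± 0.49 on the log2 scale (edgeR adjusted p = 0.00113). Over 17 alternatives its fold change ran from 2.76 to 3.38, and it was called in 10 of them, with adjusted p from 1.81e-06 to 0.260. It missed the threshold without KO library 2 (0.0525), KO library 3 (0.0790) or WT library 2 (0.178), and without the cells of high somatic share (0.113). It also missed it with spike-in scaling (0.118), with limma-voom (0.260) and without each library's highest cell (0.0595), where the fold change was 2.98. Its span in the annotation holds 4 other entries, 2 of them small RNAs on its own strand and 2 on the other strand, so part of its reads is uncertain.

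Pcsk1n encodes proSAAS, a secreted inhibitor of a prohormone convertase (chromosome X, 7919822 to 7924410, plus strand). It was 89.0, 209 and 58.0 CPM in KO and 8.39, 4.20 and 13.3 CPM in WT, with no overlap and a log2 fold change of 3.66 ± 0.53 (SE, n = 3 each; edgeR adjusted p = 0.0307). UMIs were found in 19 of 23, 19 of 20 and 15 of 18 KO cells, against 4 of 24, 2 of 11 and 11 of 17 WT cells. In early pachytene cells the values were 41.3, 56.5 and 40.0 CPM in KO and 1.20, 3.64 and 30.2 CPM in WT, with a log2 fold change of 1.84 that was not called (adjusted p = 0.354), and the difference between the classes was not called either (1.45 ± 0.64, adjusted p = 0.373). Pcsk1n was called in 12 of 17 alternatives, with a log2 fold change of 3.0 to 4.33 and adjusted p from 9.38e-12 to 0.260. It missed the threshold without KO library 2 (0.0525), without WT library 2 (0.178), without the cells of high somatic share (0.113), with both classes in 1 fit (0.116) and with limma-voom (0.260). Its last bases overlap Eras on the other strand, and reads of both genes cannot be told apart where the counting strand is not given.

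The other 2 called genes rested on few cells. Gm26822, an intergenic RNA (chromosome 16, 10827927 to 10833507, plus strand), had 98, 40 and 39 UMIs in KO and 0, 0 and 0 in WT. A single cell held 91, 36 and 37 of those UMIs, and 4, 4 and 3 KO cells had any. Over the groups this was 177 of 6383000 UMIs in KO and 0 of 4608267 in WT, at least 42.6-fold higher when the WT total is set at a floor of 3 UMIs over the group. The highest cells of KO libraries 2 and 3 carried the same barcode sequence. The gene failed the filter on low counts once each library's highest cell was left out, and also without the cells of high somatic share. Its adjusted p was 0.0839 without KO library 3, 0.0940 without WT library 2 and 0.260 with limma-voom. The 5S copy n-R5s196 (chromosome 3, 51828912 to 51829028, plus strand, inside Maml3) was 2.07, 0.471 and 0.773 CPM in KO and 28.4, 33.6 and 23.3 CPM in WT, a log2 fold change of -4.48 ± 0.69 (edgeR adjusted p = 0.0307). In WT, 1 cell gave 29 of 44, 22 of 24 and 30 of 56 UMIs. Its adjusted p was 0.0626 without KO library 2, 0.130 without KO library 3, 0.242 without WT library 2, 0.0842 with cells thinned to equal UMIs and 0.287 with limma-voom. It also failed the filter on low counts without each library's highest cell and without the cells of high somatic share. Near-identical 5S copies make the identity of n-R5s196 uncertain.

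**Figure D1:**
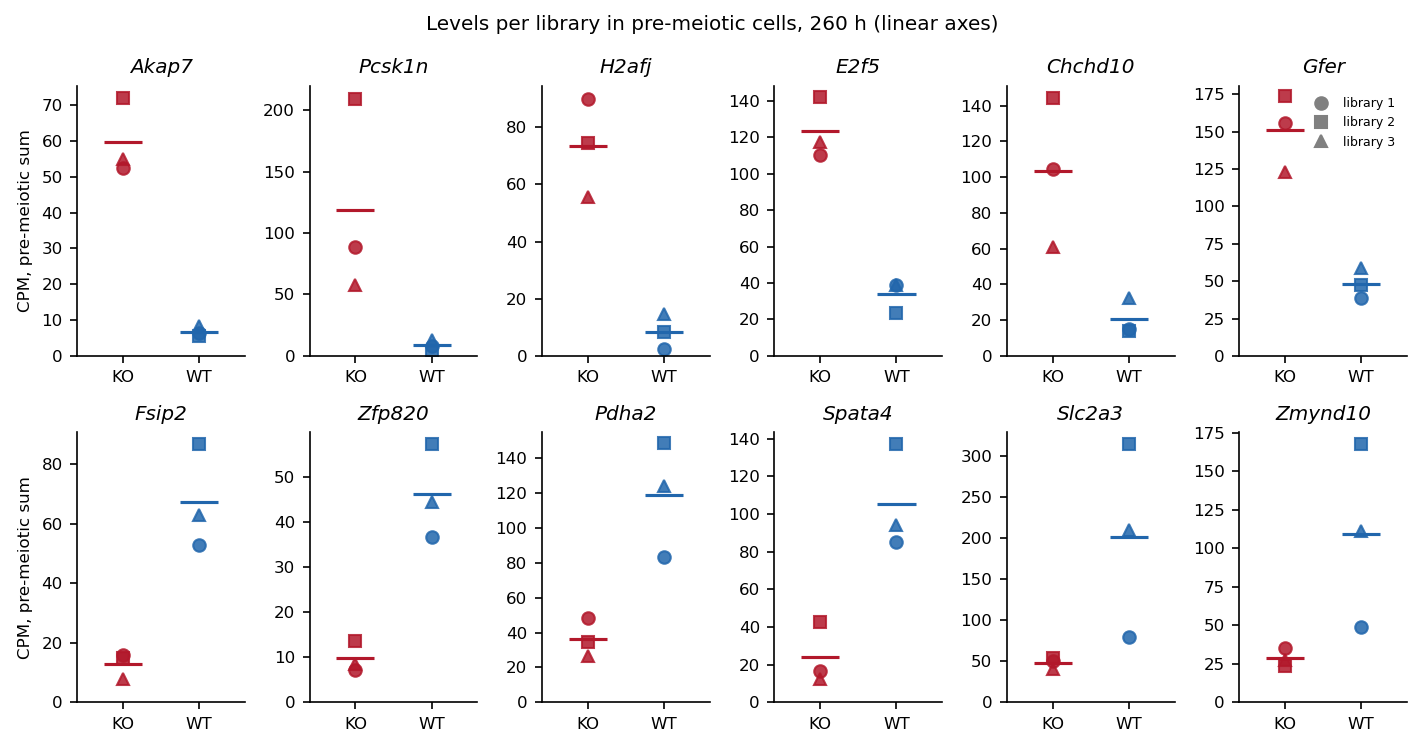
Levels of 12 genes in the pre-meiotic sums, each point 1 library (CPM; KO left, WT right; lines are means of 3 libraries). Akap7 and Pcsk1n show KO points of 52.4 to 72.0 and 58.0 to 209 CPM above WT points of 5.60 to 8.32 and 4.20 to 13.3 CPM.

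**Figure D2:**
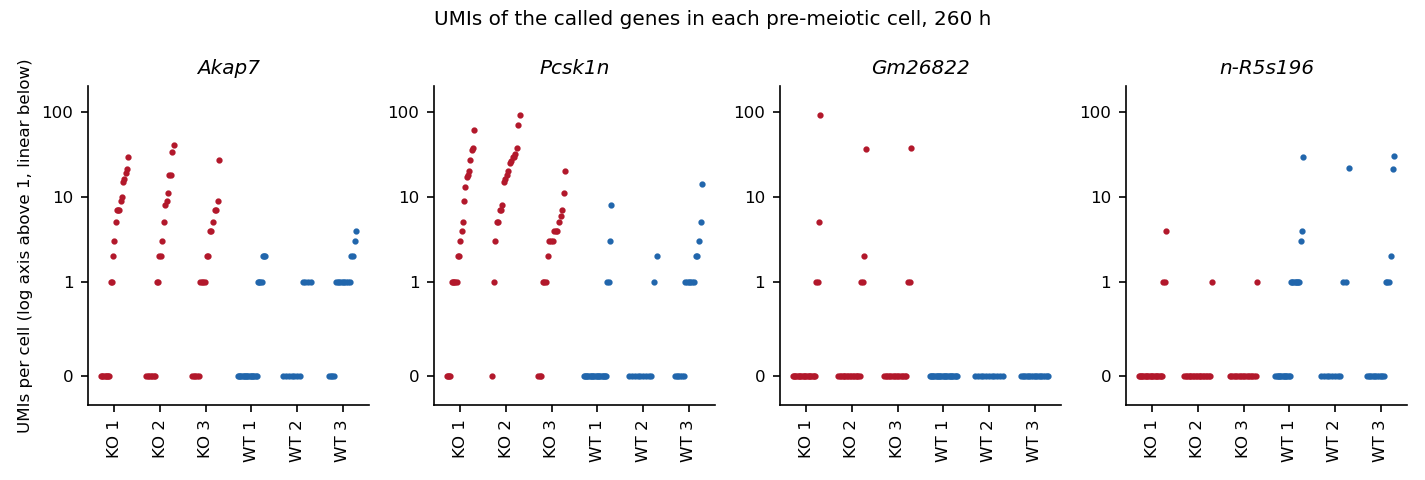
UMIs of the 4 called genes in each pre-meiotic cell, by library (KO left, WT right; cells sorted within a library; the vertical axis is linear near 0 and logarithmic above). Akap7 and Pcsk1n are spread over many KO cells, while most Gm26822 UMIs sit in 1 cell of each KO library.

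Pre-meiotic cells were few at 360 h, where KO libraries 2 and 3 had 9 and 10 and the WT libraries had 2, 2 and 1, so their values are given without a test. Akap7 was 7.64 and 5.41 CPM without TMM in KO and 0, 7.67 and 35.8 in WT. Pcsk1n was 10.9 and 19.8 CPM in KO and 4.53, 3.83 and 71.6 in WT. For both genes the highest 360 h value came from the WT library with 1 cell. The separation seen at 260 h was not present in these values. Gm26822 had 64 UMIs in 1 of these 2 KO libraries, and 0 in the other and in WT.

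Among uncalled genes with a mean of at least 20 CPM and no overlap between the groups, those of smallest p were taken by direction. Genes higher in all 3 KO libraries come first. H2afj, a replication-independent histone H2A variant, had 90, 74.4 and 55.7 CPM in KO and 2.58, 8.40 and 14.6 CPM in WT (log2 fold change 3.05 ± 0.52, edgeR adjusted p = 0.0731), with UMIs in 56 of 61 KO cells and 15 of 52 WT cells. Leaving out 1 library in turn gave it adjusted p-values from 0.00396 to 0.492. E2f5, a cell cycle transcription factor, had 110, 142 and 118 CPM in KO and 38.7, 23.8 and 39.1 CPM in WT (1.84 ± 0.32, adjusted p = 0.0777 in edgeR). E2f5 was called in early pachytene cells, at 2.24 ± 0.37 (adjusted p = 0.00611), and the test between classes called no difference in its effect (-0.41 ± 0.30, adjusted p = 0.645).

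A pair of genes of the mitochondrial intermembrane space stood in the same range. Chchd10 had 105, 144 and 61.1 CPM in KO and 14.8, 14 and 32.5 CPM in WT, a log2 fold change of 2.29 ± 0.43. Gfer, a sulfhydryl oxidase for protein import, had 156, 174 and 123 CPM in KO and 38.7, 47.6 and 58.7 CPM in WT, a log2 fold change of 1.64 ± 0.31. Both missed the threshold here (edgeR adjusted p = 0.103 each) and were called in early pachytene cells. Jag2, a Notch ligand, had 82.1, 56.9 and 78.1 CPM in KO and 19.4, 12.6 and 25 CPM in WT (1.88 ± 0.39). Tbx1, a T-box transcription factor, had 41.4, 94.1 and 57.2 CPM in KO and 12.9, 1.40 and 13.7 CPM in WT (2.64 ± 0.55). Khdrbs2, an RNA-binding protein gene, had 29.3, 64.0 and 17.8 CPM in KO and 4.52, 5.60 and 2.5 CPM in WT. Hmgxb3 and the linker histone gene Hist1h1e had log2 fold changes of 2.05 and 3.61 with an adjusted p of 0.106 each in edgeR. E2f5, Chchd10, Khdrbs2, Jag2, H2afj and Hist1h1e overlap other genes in the annotation, and Hmgxb3 overlaps Csf1r, a macrophage receptor gene, on the other strand, so their reads are uncertain in part.

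Of the genes lower in all 3 KO libraries, 10 were taken by p in the same way, and none of them was called. Fsip2, a fibrous sheath protein of the sperm tail, had 15.9, 15.1 and 7.73 CPM in KO and 52.9, 86.8 and 62.8 CPM in WT (log2 fold change -2.34 ± 0.42, edgeR adjusted p = 0.0777). Its knockout effect was more negative in pre-meiotic than in early pachytene cells by 1.07 ± 0.27 on the log2 scale (adjusted p = 0.0461 in edgeR), and it was called in the early pachytene fit and not in the pre-meiotic one. Pdha2, the testis form of a pyruvate dehydrogenase subunit, had 48.3, 34.4 and 26.3 CPM in KO and 83.3, 148 and 124 CPM in WT (-1.69 ± 0.35, adjusted p = 0.106). Slc2a3, the glucose transporter GLUT3, had 50.3, 54.1 and 41.0 CPM in KO and 79.4, 315 and 210 CPM in WT (-2.04 ± 0.42). Zmynd10, needed to assemble dynein arms, had 35.2, 23.5 and 27.8 CPM in KO and 49.1, 168 and 112 CPM in WT (-1.90 ± 0.42).

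WT library 1 was the WT library nearest to KO for Fsip2, Pdha2, Slc2a3, Zmynd10, Spata4 and Zfp820. For Dnhd1 it was WT library 3. Spata4, a spermatogenesis-associated gene, had 16.9, 42.8 and 12.4 CPM in KO and 85.2, 137 and 94.5 CPM in WT. Dnhd1, a dynein heavy chain domain gene, had 9.66, 9.41 and 3.87 CPM in KO and 34.2, 58.8 and 29.1 CPM in WT. Glipr1l2 (-1.96), Lrrc46 (-1.55) and the pseudogene Scgb2b23-ps (-2.90) completed the 10 lower genes with Zfp820. Slc2a3, Zmynd10, Spata4, Dnhd1, Glipr1l2, Lrrc46 and Scgb2b23-ps overlap other annotated genes, with the same uncertainty. Zfp820, a zinc finger gene, had 7.24, 13.6 and 8.51 CPM in KO and 36.8, 57.4 and 44.5 CPM in WT (-2.22 ± 0.45). In early pachytene cells Zfp820 fell by 4.29 ± 0.38 on the log2 scale, and the effect in pre-meiotic cells was smaller by 2.09 ± 0.45 (edgeR adjusted p = 0.0242 for the difference).

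Gene lists put these genes in context. Over all 12223 genes, 8.27% had all 3 KO libraries above all 3 WT ones and 7.25% had all 3 below, and the median log2 fold change was -0.03. These shares are the background for each count below, and apart from Pcsk1n, which is on the X-linked list, no member of any list was called. Spike-in scaling moved the median of all genes to -0.25, and under it the medians of the meiotic entry (-0.14), DNA damage (-0.03), chromatin silencing (-0.26) and X-linked (-0.01) lists turned negative. Counts cover only members that passed the filter on low counts. The lists below were made with earlier results of these data known, so they are described and not tested.

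Genes of the pachytene programme were lower as a list. Of 41 listed genes, 30 were tested, 13 of them were below WT in all 3 KO libraries and 0 were above, and the median log2 fold change was -1.08. Ldhc, the sperm lactate dehydrogenase, had 275, 267 and 157 CPM in KO and 533, 970 and 477 CPM in WT (-1.50 ± 0.35, edgeR adjusted p = 0.129). Meig1, needed for sperm shaping, had 280, 327 and 159 CPM in KO and 586, 842 and 606 CPM in WT (-1.41 ± 0.33, adjusted p = 0.129). Of 65 axoneme and cilium genes, 45 were tested, 21 were below and 1 above without overlap, and the median was -1.04. Cfap65, a cilium and flagellum protein, had 14.1, 8.00 and 17.0 CPM in KO and 24.5, 77.0 and 72.0 CPM in WT. Of 24 germ-cell metabolic paralogs, which stand in for X-linked or somatic enzymes in meiosis, 18 were tested, 10 were below and 0 above, and the median was -1.11. Over the 17 alternatives these 3 medians ran from -1.36 to -0.81, from -1.18 to -0.71 and from -1.36 to -0.85. The lists share genes: Pdha2, Ldhc and Slc2a3 are on the metabolic list, and Pdha2, Ldhc and Meig1 are on the pachytene one.

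The calls in these lists depended on which WT library was left out. Without WT library 1, 12 of 33 tested pachytene genes, 7 of 49 axoneme genes and 3 of 19 metabolic paralogs were called lower, where 0.966% of all genes were. Without WT library 3 the calls were 3, 1 and 1, where 0.188% of all genes were called lower. Without WT library 2 no gene was called in any list. The summed pachytene list took 0.348%, 0.302% and 0.285% of the UMIs of the KO sums and 0.389%, 0.719% and 0.601% of the WT ones.

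Median shares per cell were taken for the pachytene and axoneme lists and not for the metabolic one. Neither of them overlapped between the groups. The pachytene list took 0.353%, 0.306% and 0.277% of a cell's UMIs in KO and 0.411%, 0.733% and 0.587% in WT. The axoneme list took 0.121%, 0.116% and 0.101% in KO and 0.185%, 0.351% and 0.232% in WT. Both had an exact two-sided permutation p of 0.1, the smallest that 3 against 3 libraries allow, and an adjusted p of 0.38 over 19 per-library measures. Of 12 list shares, 5 did not overlap between the groups. Without the 23 cells of high somatic share, 17 of them from WT library 1, that count was 1. The pachytene medians were then 0.355%, 0.310% and 0.277% in KO and 0.330%, 0.727% and 0.587% in WT, so that WT library 1 fell inside the KO range, while the axoneme medians still did not overlap, at 0.123%, 0.116% and 0.1% in KO and 0.130%, 0.343% and 0.232% in WT. Median gene UMIs per cell, 110959, 110723 and 64237 in KO and 71666, 65660 and 144480 in WT, overlapped between the groups. In summed counts, fewer cells that express a gene and less RNA of it per cell cannot be told apart.

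**Figure D3:**
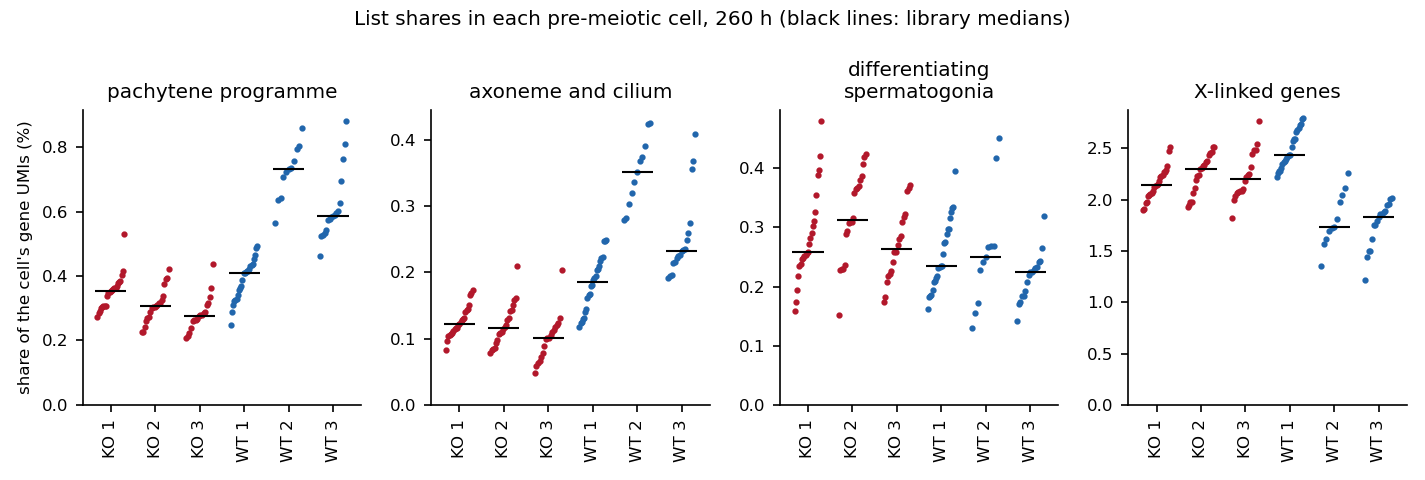
Share of each pre-meiotic cell's gene UMIs (percent) taken by 3 gene lists and by X-linked genes, by library (KO left, WT right; 1 point per cell, lines are medians). Pachytene medians are 0.277% to 0.353% in KO and 0.411% to 0.733% in WT.

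The piRNA pathway, which silences transposons through PIWI proteins and small RNAs, also had a negative median. Of 27 tested members, 5 were below and 1 above without overlap, with a median of -0.45. Piwil1, the PIWI protein of the pachytene stage, had 122, 64.0 and 75.8 CPM in KO and 101, 484 and 358 CPM in WT (-1.83 ± 0.49, edgeR adjusted p = 0.184), where WT library 1 lay inside the KO range. Tdrd1, a tudor protein of the same pathway, had 232, 187 and 159 CPM in KO and 296, 416 and 309 CPM in WT, without overlap (-0.82). Of 32 spermatid genes only 9 passed the filter, with 2 below and a median of -0.57. That direction turned with no filter on low counts, where 27 spermatid genes had a median of 0.88 and all genes one of 0.21. Acr, the acrosomal protease acrosin, had 7.59, 5.65 and 3.09 CPM in KO and 11.6, 30.8 and 32.9 CPM in WT.

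The lists of early meiotic genes had medians from -0.22 to 0.10, and their difference from the later lists was not tested. Of 32 tested meiotic entry genes, 4 were above and 5 below without overlap, with a median of 0.02. Spo11, which makes the DNA breaks of meiotic recombination, had 12.1, 15.5 and 7.73 CPM in KO and 16.8, 47.6 and 61.2 CPM in WT (-1.81 ± 0.52, edgeR adjusted p = 0.196). Majin, which anchors telomeres to the nuclear envelope, had 35.2, 31.1 and 19.3 CPM in KO and 43.3, 54.6 and 76.2 CPM in WT. Esx1, an X-linked homeobox gene, had 182, 81.0 and 158 CPM in KO and 86.5, 23.8 and 44.5 CPM in WT, overlapping. Of 21 tested synaptonemal complex and crossover genes, 0 were above and 2 below, 17 had a negative log2 fold change and 4 a positive one, and the median was -0.22, with a range of -0.44 to -0.15 over the alternatives. The median share of a cell's UMIs in this list was 0.383%, 0.331% and 0.306% in KO and 0.395%, 0.411% and 0.418% in WT, lower in KO without overlap (exact two-sided permutation p = 0.1, adjusted p = 0.38). Without the cells of high somatic share that measure was 0.392%, 0.336% and 0.306% in KO and 0.381%, 0.410% and 0.418% in WT, and the groups overlapped. They also overlapped with cells thinned to equal UMIs, at 0.387%, 0.334% and 0.317% in KO and 0.384%, 0.402% and 0.411% in WT. Of 27 DNA damage and sex body genes, 0 were above and 4 below, with a median of 0.10 and a mean of -0.03. Of 33 division genes, 0 were above and 4 below (median -0.18), and the spindle checkpoint gene Bub3 had 164, 136 and 128 CPM in KO and 285, 238 and 249 CPM in WT.

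Spermatogonial markers were described in 2 lists, and the difference between the lists was not tested. Of 14 tested markers of differentiating spermatogonia, 4 were above and 1 below without overlap, with a median of 0.71. Rhox13, an X-linked homeobox gene of these cells, had 143, 151 and 96.7 CPM in KO and 47.1, 47.6 and 28.3 CPM in WT (1.69 ± 0.34, edgeR adjusted p = 0.106). Ccnd1, cyclin D1, had 107, 191 and 113 CPM in KO and 76.8, 25.2 and 38.7 CPM in WT (1.52 ± 0.40). Dmrtb1, which acts at the switch from mitosis to meiosis, had 157, 171 and 201 CPM in KO and 107, 21.0 and 53.7 CPM in WT (1.51 ± 0.43). Both missed the threshold at adjusted p-values of 0.168 and 0.2. Without WT library 1, 5 of the 14 were called higher, where 0.671% of all genes were. Of 12 tested markers of undifferentiated spermatogonia, 1 was above and 0 below, with a median of -0.37. That 1 was Lin28b, an RNA-binding repressor of let-7, at 103, 65.0 and 101 CPM in KO and 39.4, 32.2 and 36.2 CPM in WT (1.31 ± 0.33). The per-cell share of the undifferentiated list was 0.0975%, 0.0580% and 0.0993% in KO and 0.0671%, 0.133% and 0.128% in WT, with overlapping groups (exact two-sided permutation p = 0.4, adjusted p = 0.691).

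The per-cell share of the differentiating list was 0.258%, 0.313% and 0.264% in KO and 0.235%, 0.250% and 0.224% in WT, without overlap. Without the cells of high somatic share it was 0.265%, 0.312% and 0.269% in KO and 0.273%, 0.255% and 0.224% in WT, and the groups overlapped.

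**Figure D4:**
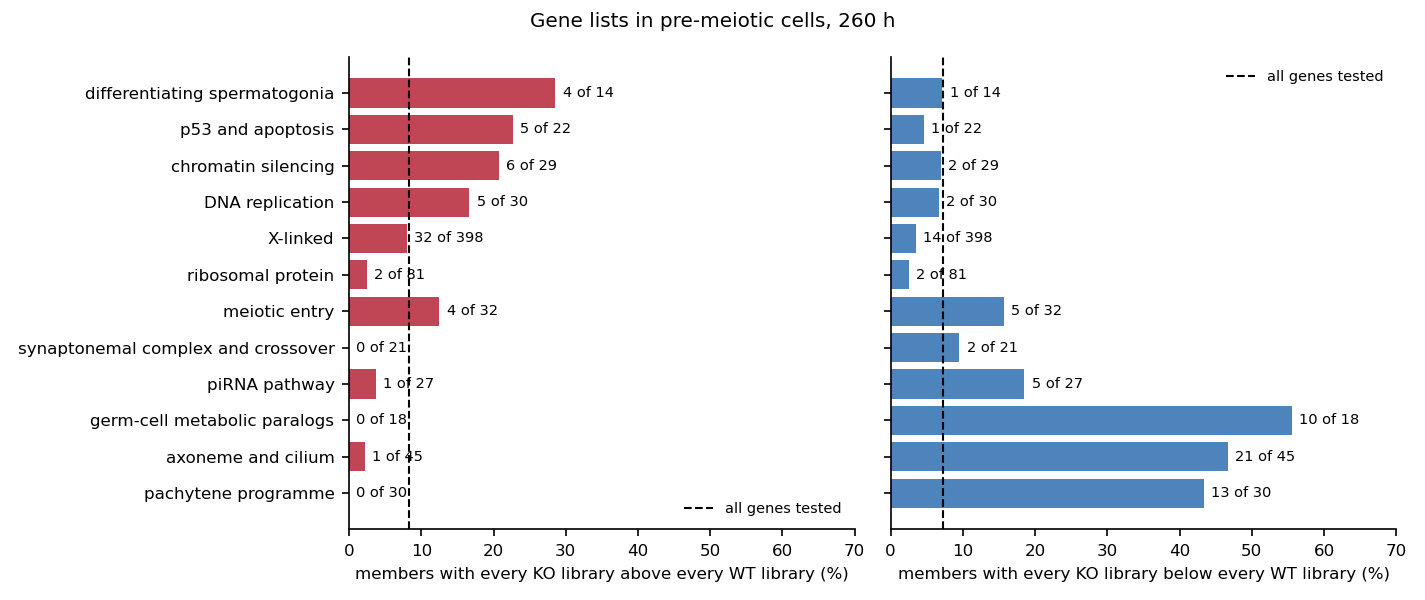
Percent of the tested members of each gene list whose 3 KO libraries all lay above (left) or below (right) the 3 WT libraries. Dashed lines give the values over all tested genes (8.27% above, 7.25% below). The pachytene, axoneme and metabolic lists have 13 of 30, 21 of 45 and 10 of 18 members below.

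Genes of DNA replication, the p53 response and chromatin silencing held more members above WT than below. Of 30 replication genes, 5 were above and 2 below, with a median of 0.24. Dut, which keeps uracil out of DNA, had 369, 377 and 261 CPM in KO and 116, 179 and 247 CPM in WT (0.89 ± 0.32), and Pola1, the catalytic subunit of DNA polymerase alpha, had 22.1, 24.0 and 25.5 CPM in KO and 49.7, 61.6 and 37.0 CPM in WT (-1.04 ± 0.38). Of 22 tested p53 and apoptosis genes, 5 were above and 1 below, with a median of 0.29. Ccng1, cyclin G1, a p53 target, had 93.4, 100 and 105 CPM in KO and 47.8, 12.6 and 26.6 CPM in WT (1.74 ± 0.40, edgeR adjusted p = 0.129). Gadd45b, a stress-induced gene, had 54.1, 80.5 and 41.8 CPM in KO and 34.2, 15.4 and 12.1 CPM in WT. Phlda3, an AKT inhibitor and p53 target, had 21.7, 27.8 and 34.8 CPM in KO and 8.39, 1.40 and 13.3 CPM in WT. Both had log2 fold changes above 1, at 1.51 and 1.72.

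Of 29 tested chromatin silencing genes, 6 were above and 2 below, with a median of 0.01. Hells, a chromatin remodeller needed for DNA methylation, had 786, 1258 and 814 CPM in KO and 368, 186 and 548 CPM in WT (1.37 ± 0.38, edgeR adjusted p = 0.181). In early pachytene cells Hells was called at 2.26 ± 0.29, and the effect in pre-meiotic cells was smaller by 0.86 ± 0.20 (adjusted p = 0.0310 for the difference). Cbx1, heterochromatin protein 1 beta, had 323, 487 and 302 CPM in KO and 152, 137 and 233 CPM in WT (1.08 ± 0.31). Suv39h2, a histone H3 lysine 9 methyltransferase, had 70, 97.9 and 88.9 CPM in KO and 50.4, 23.8 and 50.8 CPM in WT (1.01 ± 0.36).

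X-linked genes, which are transcribed before pachytene silencing, gave 398 tested genes, of which 32 were above and 14 below, against 8.27% above and 7.25% below over all genes. Their median log2 fold change was 0.11. The median X-linked share of a cell's UMIs was 2.14%, 2.30% and 2.20% in KO and 2.43%, 1.74% and 1.83% in WT (exact two-sided permutation p = 0.4, adjusted p = 0.691). The 3 KO medians lay between WT library 1 and the other WT libraries. Sms, the X-linked spermine synthase, had 72.1, 65.4 and 46.4 CPM in KO and 24.5, 9.79 and 12.9 CPM in WT (1.93 ± 0.43, edgeR adjusted p = 0.112). Ribosomal protein genes, many of which have near-identical copies, had 2 of 81 above and 2 below, with a median of -0.06. Of 24 immediate early and heat shock genes, 2 were above and 0 below, and of 7 mitochondrial genes none stood outside the overlap.

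The knockout effect in pre-meiotic cells was then set against that in the 141 KO and 154 WT early pachytene cells of the same libraries, where 437 of 13703 genes were called (3.19%), 286 higher (2.09%) and 151 lower (1.1%). In those cells 10.9% of genes had all KO libraries above WT and 10.4% had all below. Without KO libraries 1, 2 and 3 the early pachytene count was 127, 220 and 178, and without the WT libraries it was 530, 134 and 956. A class by genotype test within libraries called 218 of 15819 genes (1.38%), 29 with a more positive (0.183%) and 189 with a more negative (1.19%) effect in pre-meiotic cells. Without KO libraries 1, 2 and 3 the count was 147, 101 and 119, and without WT libraries 1, 2 and 3 it was 411, 72 and 81. Scaling moved the split, to 38 and 119 under relative log expression and to 70 and 77 under spike-in scaling. The median difference over all genes was -0.09, -0.01 and 0.15 under the 3 scalings, and each difference is read against it. Beside these results stand the authors' clusters: early pachytene cells of KO all lay in cluster 3, those of WT libraries 1 and 2 in cluster 2 except for 1 cell, and those of WT library 3 in cluster 3. Pre-meiotic cells shared 1 cluster. The part of this split in the differences was not tested.

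On the negative side the genes of smallest p overlapped between genotypes in pre-meiotic cells or differed little, and were higher in KO early pachytene cells. Rasgrp2, an exchange factor for RAP1, had 81.0, 73.0 and 68.1 CPM in KO and 85.2, 35.0 and 26.6 CPM in WT pre-meiotic cells, and 149, 123 and 101 CPM in KO and 7.18, 7.5 and 4.80 CPM in WT early pachytene cells. Atp2b1, a calcium pump, had 182, 166 and 180 CPM in KO and 165, 160 and 134 CPM in WT pre-meiotic cells, and 98.5, 120 and 107 CPM in KO and 18, 14.1 and 9.59 CPM in WT early pachytene cells. Kmt2c, a histone H3 lysine 4 methyltransferase, had 130, 75.3 and 162 CPM in KO and 136, 183 and 208 CPM in WT pre-meiotic cells, and 110, 89.0 and 115 CPM in KO and 27.5, 22.0 and 23.5 CPM in WT early pachytene cells. In WT these 3 genes were lower in early pachytene than in pre-meiotic cells of every library. In KO early pachytene cells Rasgrp2 was higher and Atp2b1 was lower than in pre-meiotic cells of every library. The KO values of Kmt2c overlapped between the classes. These comparisons across classes rest on CPM scaled separately in each class. The differences were -3.49 ± 0.33, -2.89 ± 0.26 and -2.77 ± 0.27 on the log2 scale (edgeR adjusted p = 8.57e-07, 3.31e-07 and 1.25e-06). Gapdh, the glycolytic enzyme, and Ptma, prothymosin alpha, had differences of -2.32 ± 0.19 and -1.50 ± 0.16.

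On the positive side Akap7 stood beside Crybg3, which had 73.1, 138 and 52.6 CPM in KO and 44.5, 9.79 and 20.4 CPM in WT pre-meiotic cells. In early pachytene cells Crybg3 had 6.03, 9.91 and 7.01 CPM in KO and 52.1, 35.2 and 10.2 CPM in WT, and the difference was 3.59 ± 0.51. For Crybg3 all 3 KO libraries lay above WT in one class and below it in the other, although neither effect was called by itself. Selenos, a selenoprotein of the endoplasmic reticulum, had a difference of 1.37 ± 0.22, Pou2f2, a POU transcription factor, 2.38 ± 0.43, and Mlf1 1.31 ± 0.24. For these 3 the groups overlapped in pre-meiotic cells and lay lower in KO without overlap in early pachytene cells. Crybg3 overlaps Riox2 on the other strand, and its reads are uncertain in part.

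**Figure D5:**
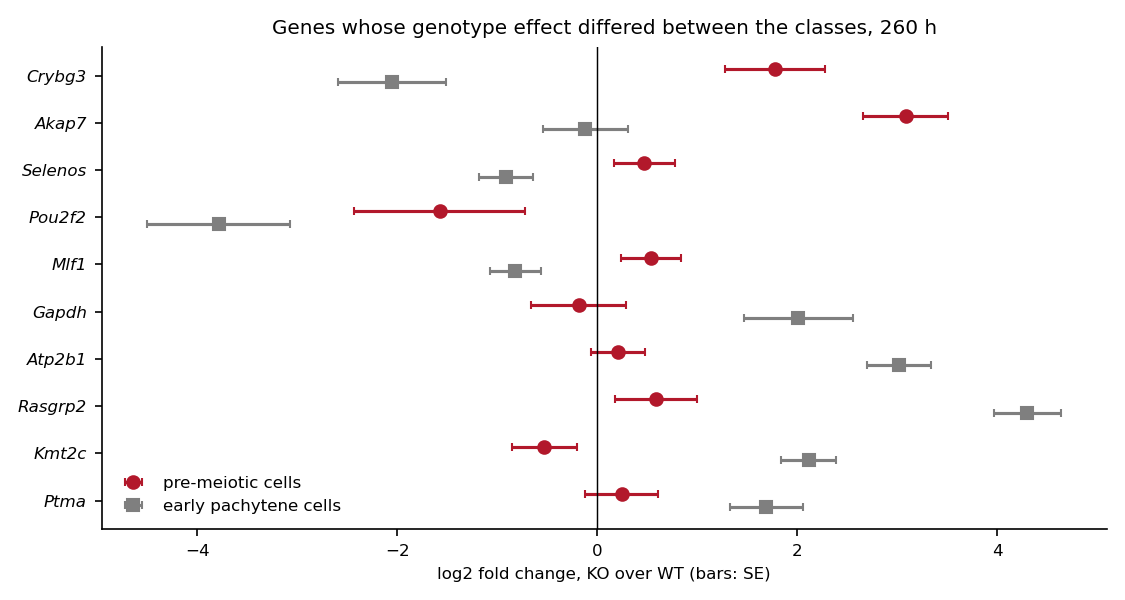
Log2 fold change (KO over WT) ± SE of the 10 genes of smallest p in the class by genotype test, in pre-meiotic and in early pachytene cells (3 libraries each). Rasgrp2, Atp2b1 and Kmt2c sit between -0.53 and 0.59 in pre-meiotic cells and between 2.11 and 4.30 in early pachytene cells, and Akap7 sits at 3.08 and -0.12.

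In the class by genotype test, calls among list members are set beside those among all genes, of which 0.183% were more positive and 1.19% more negative. Of the later sperm lists, 1 of 36 pachytene genes was called with a more positive and 1 with a more negative effect in pre-meiotic cells, the same counts as for 60 axoneme genes, and 0 of 20 metabolic paralogs were called. Calls with a more negative effect made up 8 of 81 ribosomal protein genes and 4 of 31 chromatin silencing genes. They also made up 2 of 30 replication genes and 2 of 33 meiotic entry genes. Of 15 differentiating and 16 undifferentiated spermatogonial markers, 1 each was called so. The same held for 1 of 24 immediate early and heat shock genes and 1 of 27 DNA damage genes. Each of these shares was above that of all genes, as were those of the pachytene and axoneme lists. In lists of this size 1 call is enough for that, so a single call says nothing about a list. None of the 27 piRNA, 33 division, 25 p53 and apoptosis or 22 synaptonemal complex and crossover genes was called in either direction. Of the 30 replication genes, 1 was called with a more positive effect. Of 454 X-linked genes, 4 were called with a more positive effect and 0 with a more negative one. In early pachytene cells the pachytene, axoneme and metabolic lists had median log2 fold changes of -0.63, -1.10 and -0.63. The share of the pachytene list in pre-meiotic cells was 0.426, 0.375 and 0.367 of that in early pachytene cells in KO and 0.317, 0.523 and 0.589 in WT. WT library 1, with the lowest of these ratios, was also the library with the largest share of pre-meiotic cells, and the part of the mix of cells in these ratios was not tested.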

How the data were processed

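Per the labels' protocols, single cells were picked by hand, barcoded with a modified Smart-seq2 protocol, captured at 3′ ends and sequenced. The deposited tables hold raw UMI counts per gene and barcode (55450 genes, 92 spike-ins, 96 barcodes per library). Tools named, per the submitters' processing notes, are STAR 2.5.3a, featureCounts 1.6.4 and UMI-tools 1.0.0, on build mm10. No source used here says whether strand was counted, so other named genes that overlap an annotated gene (Kctd19, Dnttip1, Elmsan1, Trerf1, Cfap65, Piwil1, Bub3, Ccnd1, Pola1, Cbx1, Suv39h2, Rasgrp2, Kmt2c, Gapdh, Pou2f2 and Mlf1) are uncertain in part. Cells, classes and the k-means cluster number (a score with no unit) came from the authors' deposited annotation. No doublet caller was run on these picked cells, and no source used here gives the authors' doublet treatment.

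Counts were summed over the pre-meiotic cells of each library, without spike-ins, filtered by filterByExpr (12223 genes), scaled by TMM and tested with edgeR 4.0.16 (quasi-likelihood, robust; R 4.3.3, limma 3.58.1, DESeq2 1.42.0). Calls were made where the p adjusted by Benjamini-Hochberg over all tested genes was under 0.05. The class by genotype test used library as a block. Per-library medians (19 measures) were compared by exact two-sided permutation of 3 against 3, smallest p 0.1. The fits were checked on simulated data. No 2 libraries of the same genotype were duplicates (chi-square per degree of freedom at least 6.96). Pairs of KO and WT libraries were not compared in this way.

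The members and gene lists were chosen with earlier results of these data known. Named genes were the ZFP541 complex, every called gene, the 10 uncalled genes of smallest p per direction (mean CPM of at least 20, groups without overlap, no predicted or ribosomal RNA genes), up to 3 members of smallest p per list, and the 5 genes of smallest p per direction in the class by genotype test. Dmrt1, Stra8, Kit, Prm1, Tnp1 and C1qa were added as markers after their values were seen. Alternatives were other scalings, filters, tools and blocks, cells thinned to 46513 UMIs, cells of high somatic share left out, both classes in 1 fit, and each library left out. Leaving out each gene's highest cell was added after the data were seen.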

Additional observations from a re-analysis of the deposited data

Results flagged for a closer look

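The knockout effect differed between the 2 cell classes, by the class by genotype test within libraries (edgeR, adjusted over 15819 genes), for the genes listed here. Each value is the log2 effect in pre-meiotic cells minus that in early pachytene cells. More positive in pre-meiotic cells were Crybg3 (3.59, adjusted p = 0.000595), Akap7 (3.05, adjusted p = 0.00113), Selenos (1.37, adjusted p = 0.00119), Pou2f2 (2.38, adjusted p = 0.00341) and Mlf1 (1.31, adjusted p = 0.00437). More negative were Gapdh (-2.32, adjusted p = 1.89e-07), Atp2b1 (-2.89, adjusted p = 3.31e-07), Rasgrp2 (-3.49, adjusted p = 8.57e-07), Kmt2c (-2.77, adjusted p = 1.25e-06) and Ptma (-1.50, adjusted p = 3.21e-06). With replicate number in place of library as the block, only Atp2b1, Rasgrp2 and Kmt2c of these 10 were called. Pou2f2 also missed the threshold without KO library 1 (adjusted p = 0.0623) and Mlf1 without WT library 2 (adjusted p = 0.0571).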

How the results depend on the processing

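The count of called genes in pre-meiotic cells, 4 in the analysis reported, was 14 with spike-in scaling, 203 with no filter on low counts, 178 with DESeq2, 0 with limma-voom, 9 with cells thinned to equal UMIs, 0 without the cells of high somatic share, 36 with both classes in 1 fit and 2 without each gene's highest cell of each library. It was 4 with relative log expression scaling and with a stricter filter, and ran from 0 to 222 when each library was left out in turn. The early pachytene count, 437, was 84 with spike-in scaling and ran from 127 to 956 with a library left out. The class difference count, 218, ran from 72 to 411 with a library left out and was 5 with replicate number in place of library as the block. The number of list shares without overlap, 5, was 4 with cells thinned to equal UMIs and 1 without the cells of high somatic share. It ran from 5 to 8 with a library left out. That leaves 2 libraries in 1 group, where a lack of overlap is easier to reach, so this range is not comparable with 5.

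The replicate numbers did not pair the libraries (correlations of same-numbered deviations -0.146, -0.177 and 0.148). With the replicate block 4 genes were called, 3 of them shared, and n-R5s196 missed the threshold (adjusted p = 0.0502). In place of the library block it left 5 genes called in the class difference.

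Signs turned for genes near 0. Zfp541 was 0.072 with limma-voom and ran from -0.73 to 0.48 with a library left out. Dnttip1 ran from -0.37 to 0.17 and Elmsan1 from -0.77 to 0.40. Gapdh in pre-meiotic cells was 0.0037 with the replicate block and ran from -0.50 to 0.57. The causes were not tested. Depth limits the low genes: the sums held 11 to 24 cells and as few as 682733 gene UMIs, and 2 of the 4 called genes had most of their UMIs in 1 cell of each library.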
